A study of Homo sapiens with 20 samples.

Results

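The genes described here are 36 genes of cytokines, their NF-kB regulators and targets, and acute-phase proteins, chosen by name from a table of 60671 human genes. They were measured by RNA sequencing in hTCEpi, a telomerase-immortalized line of human corneal epithelial cells. All cells were grown in keratinocyte growth medium with added calcium and sampled after 24 hours. The groups were 0 µg/ml (control), 0.05 µg/ml (SPARC 0.05), 0.5 µg/ml (SPARC 0.5) and 5 µg/ml (SPARC 5) of recombinant SPARC, a collagen-binding protein that cells secrete into the matrix, with 5 samples in each group. All samples come from the same single line, and the labels do not say whether the 5 samples of a group were separate cultures, so p-values measure only the spread between these samples.

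NF-kB is a family of transcription factors held in the cytoplasm by inhibitors such as the product of NFKBIA. Signals from receptors of interleukin-1, tumour necrosis factor or microbial products release it to bind DNA and switch on cytokines, chemokines, adhesion molecules, acute-phase proteins and its own inhibitors. In the cornea, epithelial cells store interleukin-1α, which is released on injury, and secrete chemokines that draw neutrophils from the limbal vessels.

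All 36 genes were in the table, and 29 had enough counts to be tested. Genes that rose or fell had an adjusted p under 0.05. At SPARC 5 against control 2 of the 29 rose, NLRP3 and PTGS2, where 7.05% of all 22938 genes tested rose, and 5 fell, SAA1, C3, PTGES, RELB and CXCL2, where 4.58% of all genes fell. In bulk RNA, fewer cells that express a gene and less RNA in each cell cannot be told apart. The abundant NF-kB genes NFKB1, NFKB2, NFKBIA and TNFAIP3 did not pass, nor did the 7 tested genes of the IL-1 family and of other cytokines. PTGES was the 1 gene of the 29 that passed at SPARC 0.5, where 2.25% of all genes did, and none passed at SPARC 0.05 in edgeR or DESeq2, where edgeR called 0.266% of all genes and 1 of the 29 had an unadjusted p under 0.05.

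Of the 29 genes with a promoter in the RefSeq table, 14 (48.3%) held a match to the NF-kB consensus on either strand in the 250 bases before the start, against 9.96% of 35116 promoters of the same length. The 36 genes include many known NF-kB targets, so the share describes the choice of genes. CXCL2 is shown because it fell, and its neighbour CXCL3 because it carries the same stretch and did not pass the test. NFKBIA is shown as a classical target of NF-kB, and PTGES, PTGS2 and NLRP3 because they changed and hold no match in this window. The search marks only exact matches to the consensus, so a stretch close to it, such as gggactaccc in PTGS2, is not marked. Each sequence is the 250 bases before the gene's start, 5′ to 3′ on the gene's strand, with matches to the consensus in capitals (RefSeq, GRCh38.p14).
CXCL2, chr4:74099196-74099445, minus strand: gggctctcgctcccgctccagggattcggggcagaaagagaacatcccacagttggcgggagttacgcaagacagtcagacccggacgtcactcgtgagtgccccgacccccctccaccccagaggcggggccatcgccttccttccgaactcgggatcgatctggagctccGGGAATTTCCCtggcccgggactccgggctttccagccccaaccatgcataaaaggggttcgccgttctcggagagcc
CXCL3, chr4:74038690-74038939, minus strand: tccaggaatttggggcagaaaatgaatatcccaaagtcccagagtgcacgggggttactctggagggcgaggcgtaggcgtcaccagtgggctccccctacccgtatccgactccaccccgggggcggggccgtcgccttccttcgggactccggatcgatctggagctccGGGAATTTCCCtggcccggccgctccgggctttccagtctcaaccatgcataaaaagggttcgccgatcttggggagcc
NFKBIA, chr14:35404750-35404999, minus strand: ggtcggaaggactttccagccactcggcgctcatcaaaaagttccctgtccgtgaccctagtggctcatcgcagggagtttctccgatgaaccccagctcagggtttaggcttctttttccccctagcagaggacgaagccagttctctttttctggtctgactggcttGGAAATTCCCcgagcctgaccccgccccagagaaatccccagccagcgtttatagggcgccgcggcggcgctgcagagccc
PTGES, chr9:129753043-129753292, minus strand: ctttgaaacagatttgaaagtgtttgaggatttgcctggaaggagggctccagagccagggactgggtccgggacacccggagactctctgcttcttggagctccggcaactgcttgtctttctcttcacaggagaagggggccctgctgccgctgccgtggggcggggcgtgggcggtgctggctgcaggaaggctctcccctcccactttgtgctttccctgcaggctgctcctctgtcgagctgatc
PTGS2, chr1:186680424-186680673, minus strand: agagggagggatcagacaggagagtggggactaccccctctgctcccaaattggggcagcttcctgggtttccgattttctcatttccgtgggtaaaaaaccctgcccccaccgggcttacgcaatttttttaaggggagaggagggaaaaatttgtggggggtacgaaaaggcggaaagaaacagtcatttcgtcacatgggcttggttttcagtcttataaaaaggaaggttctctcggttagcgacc
NLRP3, chr1:247415923-247416172, plus strand: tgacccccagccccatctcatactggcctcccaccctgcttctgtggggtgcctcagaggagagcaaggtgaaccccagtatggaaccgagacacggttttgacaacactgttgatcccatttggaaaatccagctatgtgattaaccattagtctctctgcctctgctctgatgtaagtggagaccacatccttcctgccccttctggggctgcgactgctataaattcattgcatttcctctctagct

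CXCL1, CXCL2, CXCL3, CXCL5 and CXCL6, all on chromosome 4, hold the same 11-base run GGGAATTTCCC, with its first base at −79, −78, −79, −91 and −90 from the start. A match is a description of letters and not a site of binding, which these data do not measure. Entries were present for 29 of the 36 genes, and SAA1, SAA2, C3, IL18, RELB, CSF3 and CCL2 had none.

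Total counts per sample were between 31955358 and 50112286, with 37.5 ± 3.56 M at SPARC 5 and 34.9 ± 3.09 M in control (mean ± SD, n = 5 each). Levels are counts-per-million (CPM) with TMM scaling. Epithelial markers summed to between 12087 and 12552 CPM per sample at SPARC 5 and between 11694 and 12619 CPM in control, of which KRT5, a basal keratin, made up 11312 ± 157 CPM at SPARC 5 and 11311 ± 354 CPM in control. Of the 11 tested epithelial markers, 2 rose and 4 fell at SPARC 5 against control, where 7.05% and 4.58% of all genes tested did. The part of these markers in the results was not tested. The basal keratin KRT14 rose to 465 ± 42.3 CPM at SPARC 5, against 331 ± 25.0 CPM in control (log2 fold change 0.49 ± 0.06, adjusted p = 3.91e-05), and TP63, a basal cell transcription factor, rose by 0.09 ± 0.02 (adjusted p = 0.00535). The limbal keratin KRT15 fell to 53.0 ± 7.52 CPM at SPARC 5, against 114 ± 24.5 CPM in control (−1.11 ± 0.14, adjusted p = 2.98e-05). The corneal aldehyde dehydrogenase ALDH3A1 fell by 0.85 ± 0.12 (adjusted p = 3.03e-08), the chaperone CLU by 0.52 ± 0.08 (adjusted p = 1.41e-06) and the adhesion molecule EPCAM by 0.32 ± 0.03 (adjusted p = 1.11e-12) on the log2 scale. The corneal keratin KRT12 had at most 4 counts in any sample, and the eye-field factor PAX6 had 7.64 ± 0.755 CPM at SPARC 5 and 7.65 ± 0.954 CPM in control. A list of 10 leukocyte markers summed to 1.18 to 2.698 CPM at SPARC 5 and 2.28 to 3.32 CPM in control, with HLA-DRA at 0 in all samples and PTPRC at 7 counts or fewer. Of the 10, 2 had a mean of 1 CPM or more in control and 1 at SPARC 5. Enough counts to be tested were found for 3, whose log2 fold changes at SPARC 5 were below 0 and did not pass. A list of 8 fibroblast markers summed to 5.95 to 8.48 CPM at SPARC 5 and 4.95 to 6.55 CPM in control, most of it COL1A1. For 4 melanocyte markers the sums were 2.32 to 3.49 CPM at SPARC 5 and 2.53 to 3.62 CPM in control. For 4 endothelial markers they were 0.239 to 1.33 CPM at SPARC 5 and 0.814 to 1.48 CPM in control. SPARC 5 samples 2 and 5 stood apart from the other libraries in earlier work on these data, by a measure not given here. Without them 6 of the 29 genes were called at SPARC 5, and over all genes 2207 were called, against 2666 with all samples. The correlation of a library's log2 levels with the GC content of genes was −0.0403 ± 0.0837 at SPARC 5 and 0.128 ± 0.107 in control. It was −0.0354 ± 0.0325 at SPARC 0.05 and −0.0598 ± 0.0434 at SPARC 0.5, so the mean of control lay above those of all 3 doses.

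The 36 genes spanned a wide range of levels. Per kilobase of exon, which allows genes to be compared, NFKBIA led with 41.8 CPM per kb over the 20 samples. IL18, a member of the IL-1 family that needs cleavage to be active, followed with 34.4 CPM per kb, then SAA1 with 33.5, IL1A with 31.1 and NFKB1 with 26.3 CPM per kb. The other subunit genes NFKB2 and RELB had 11.6 and 6.05 CPM per kb, and the inhibitor TNFAIP3 5.85 CPM per kb. The secreted chemokines were lower, with CXCL2 at 4.88, CCL20 at 2.73, CXCL3 at 0.921, CXCL8 at 0.429 and CXCL1 at 0.362 CPM per kb.

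**Figure D1:**
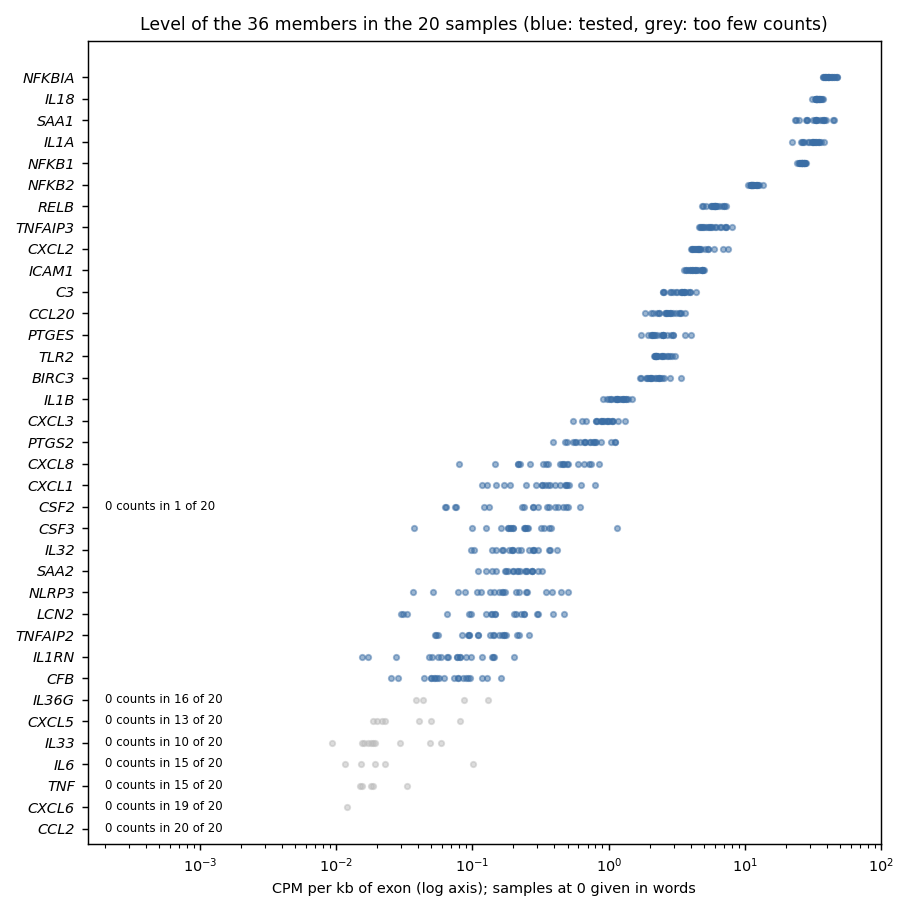
Level of each of the 36 genes in CPM per kilobase of exon (log axis), 1 point for each of the 20 samples, ordered by mean. NFKBIA lies at the top at 41.8 CPM per kb, and samples with no counts of a gene are given in words because 0 has no place on the axis.

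Some of the best-known inflammatory cytokines were at or near 0. CCL2, which attracts monocytes, had no counts in any of the 20 samples, CXCL6 had 1 count in 1 sample of SPARC 0.5, and TNF had at most 2 counts, so these 3 were not detected by a minimum of 3 counts. In a sample with no counts, 3 counts would be 0.0599 to 0.0939 CPM by total counts alone, without the TMM scaling used for the levels. IL6, a fever and acute-phase cytokine, had no counts in the 5 samples of control and of SPARC 0.05, then 1, 8, 2, 2 and 0 counts at SPARC 0.5 and 0, 0, 1, 0 and 0 counts at SPARC 5. It had too few counts to be tested. The neutrophil chemokine CXCL5 had at most 7 counts, the alarmin IL33 at most 8 and the epidermal IL-1 family member IL36G at most 6, and all 3 were also too low to test.

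At SPARC 5, 7 of the 29 tested genes changed against control, or 24.1%, where 11.6% of all genes tested did. At an unadjusted p under 0.05 there were 13 of the 29, but the share of all genes at that threshold is not given here. The median log2 fold change of the 29 was −0.058, against −0.0069 over all genes tested. Of the 29, 13 lay above 0 and 16 below, where 11114 and 11824 of all 22938 genes tested did. The samples of SPARC 5 and control did not overlap for 4 of the 29, NLRP3, C3, SAA1 and PTGS2, where 7.68% of all genes tested had such groups.

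**Figure D2:**
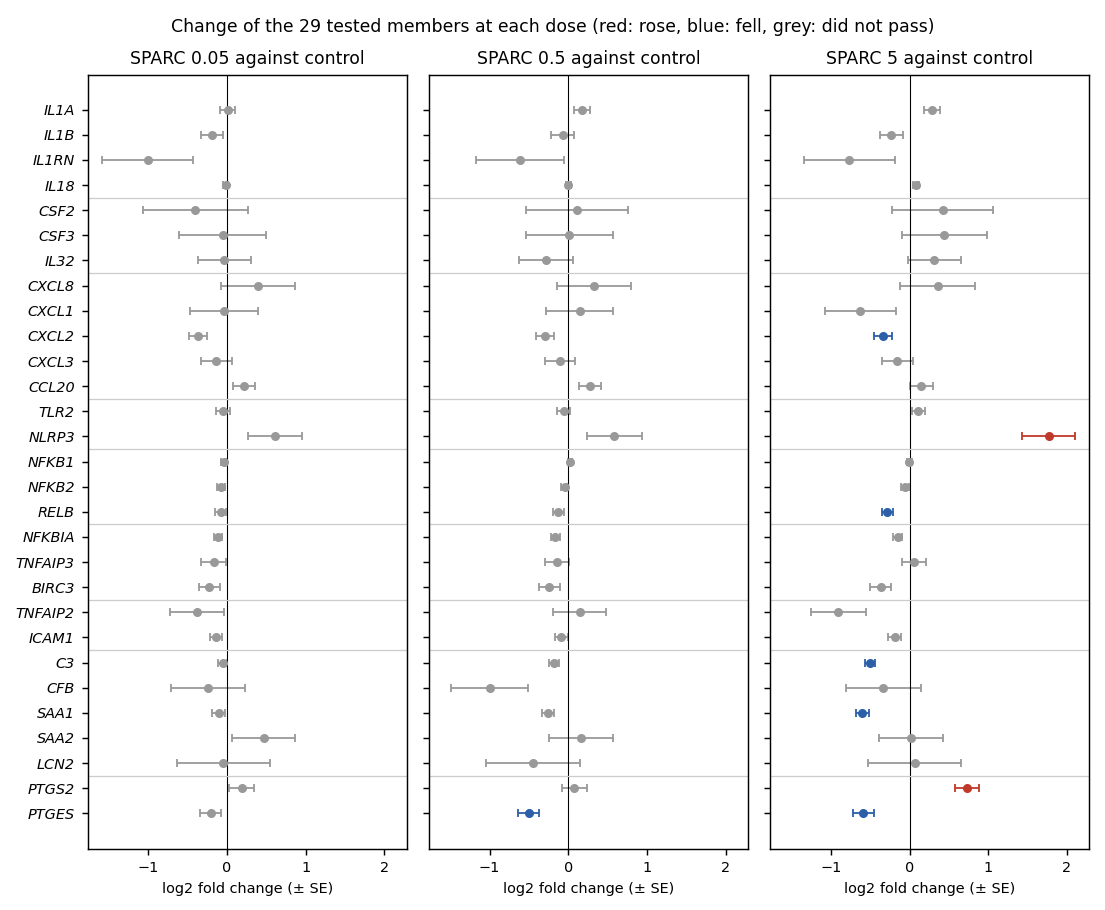
Log2 fold change against control (± SE) of the 29 tested genes, in 1 panel for each of SPARC 0.05, SPARC 0.5 and SPARC 5, with genes that passed an adjusted p of 0.05 marked. At SPARC 5 the passing values run from −0.60 for SAA1 to 1.77 for NLRP3, PTGES (−0.50) is the only passing gene at SPARC 0.5, and the 3 panels share the same control samples.

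Of the 5 tested chemokines, CXCL2, which attracts neutrophils, fell at SPARC 5. It had 7.05, 6.17, 7.12, 7.65 and 6.24 CPM in the 5 samples of SPARC 5, against 11.2, 8.00, 6.86, 6.96 and 10.3 CPM in control. The groups overlapped, and control samples 1 and 5 lay above every treated sample of all 3 doses. Its log2 fold change was −0.34 ± 0.11 (SE, adjusted p = 0.0379). Without control sample 1 the adjusted p was 0.247, and the call was lost in 6 of the 20 fits that each left out 1 sample, those without control samples 1 or 5 or SPARC 5 samples 1, 2, 3 or 5. At the other doses CXCL2 had 6.70 ± 0.787 CPM at SPARC 0.05 and 7.05 ± 1.09 CPM at SPARC 0.5, and its log2 fold changes there of −0.37 (adjusted p = 0.159) and −0.30 (adjusted p = 0.171) did not pass.

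The other chemokines did not pass at any dose. CXCL8, the main neutrophil attractant of human epithelium, had 1.03 ± 0.36 CPM at SPARC 5 and 0.803 ± 0.678 CPM in control. CXCL1, a related ligand of the same receptor, had 0.325 ± 0.147 CPM at SPARC 5 and 0.507 ± 0.33 CPM in control. CXCL3 had 1.96 ± 0.365 and CCL20, which attracts cells with the receptor CCR6, 4.31 ± 0.503 CPM at SPARC 5, against 2.19 ± 0.318 and 3.88 ± 1.03 CPM in control. Samples of 1 group differed widely for the low chemokines, with a coefficient of variation of up to 84.3% for CXCL8. In GENCODE transcripts 6.88% of the 75-base windows of CXCL2 also lie in CXCL3, so some reads could be assigned to either.

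In the IL-1 family, IL1A was high and had a trend over the doses. Its samples had 66.2, 54.7, 47.1, 62.1 and 74.1 CPM in control, 55.5, 58.2, 56.7, 72.6 and 62.3 CPM at SPARC 0.05, 66.4, 66.7, 67.7, 66.6 and 74.4 CPM at SPARC 0.5, and 77.0, 71.0, 69.3, 81.1 and 70.8 CPM at SPARC 5. The groups overlapped, since control sample 5 was as high as samples of SPARC 5. The trend was 0.10 ± 0.03 on the log2 scale for each step from control over SPARC 0.05 and SPARC 0.5 to SPARC 5 (adjusted p = 0.0458). It passed in 4 of 8 other settings (adjusted p up to 0.0942, without the filter on low counts) and in 3 of the 20 fits that left out 1 sample, those without control samples 1 or 5 or SPARC 0.05 sample 4. At SPARC 5 against control the log2 fold change was 0.28 ± 0.10, which did not pass (adjusted p = 0.0848). This comparison passed in 2 of 9 other settings and in 1 of the 20 fits, that without control sample 5 (adjusted p = 0.0176).

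IL18 passed in 1 comparison, SPARC 5 against SPARC 0.05. It had 98.9, 91.2, 95.2, 93.6 and 93.4 CPM at SPARC 5, against 96.4, 87.9, 88.8, 85.4 and 82.2 CPM at SPARC 0.05. SPARC 0.05 sample 1 lay within the range of SPARC 5 and the other 4 below it. The log2 fold change was 0.10 ± 0.03 (adjusted p = 0.0484). It passed in 3 of 9 other settings (adjusted p up to 0.303, with library sizes only) and in 3 of the 20 fits that left out 1 sample, those without control samples 3 or 5 or SPARC 0.05 sample 1. Against control the level of IL18 was 94.5 ± 2.88 CPM at SPARC 5 and 89.2 ± 2.01 CPM in control, with an adjusted p of 0.107.

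The remaining IL-1 family genes did not pass. IL1B, the inducible secreted ligand, had 3.40 ± 0.204 CPM at SPARC 5 and 3.99 ± 0.46 CPM in control. IL1RN, the receptor antagonist, had between 2 and 23 counts per sample and a log2 fold change of −0.76 ± 0.57. Of the other cytokines, the myeloid growth factor CSF2 had at most 20 counts per sample, and IL32 had 0.902 ± 0.278 CPM at SPARC 5 and 0.73 ± 0.198 CPM in control. CSF3, which drives neutrophil production, had 0.532, 0.280, 2.58, 0.0825 and 0.222 CPM at SPARC 5, against 0.418, 0.543, 0.812, 0.440 and 0.543 CPM in control. SPARC 5 sample 3 was the highest of all, and the log2 fold change of 0.44 ± 0.54 became −0.97 without it.

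NLRP3, the sensor protein of an inflammasome that activates the caspase which cleaves IL-1β and IL-18, showed the largest fold change of the 29 genes at SPARC 5. It had 2.40, 1.84, 2.13, 1.65 and 0.804 CPM at SPARC 5, against 0.418, 0.513, 0.246, 0.646 and 0.784 CPM in control. Every sample of SPARC 5 lay above every control sample, although SPARC 5 sample 5 exceeded the highest control sample only slightly. The log2 fold change was 1.77 ± 0.33 (adjusted p = 5.1e-05), and it passed in all 20 fits that left out 1 sample. The level was low, at 29 to 90 counts per sample at SPARC 5 and 10 to 26 in control. TLR2, a receptor for bacterial lipoproteins, had 13.8 ± 2.09 CPM at SPARC 5 and 12.7 ± 1.33 CPM in control and did not pass.

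NLRP3 had 0.786 ± 0.395 CPM at SPARC 0.05 and 0.768 ± 0.325 CPM at SPARC 0.5, and neither passed against control (adjusted p = 0.629 and 0.477). SPARC 5 was higher than SPARC 0.5 by 1.18 ± 0.32 (adjusted p = 0.0131) and higher than SPARC 0.05 by 1.16 ± 0.32 (adjusted p = 0.0103) on the log2 scale. The call against SPARC 0.5 held in 17 of the 20 fits that left out 1 sample, and missed without SPARC 0.5 samples 1 or 4 or SPARC 5 sample 1 (adjusted p up to 0.07). That against SPARC 0.05 held in 18, and missed without SPARC 0.05 sample 1 or SPARC 5 sample 1 (adjusted p up to 0.0567).

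Among the NF-kB subunits, RELB, the partner of the processed NFKB2 product in the noncanonical pathway (chr19:45001430-45038198, plus strand), fell. It had 19.1, 15.0, 14.8, 15.8 and 17.1 CPM at SPARC 5, against 21.5, 18.2, 17.2, 22.02 and 20.7 CPM in control. The groups overlapped, since SPARC 5 sample 1 lay above control samples 2 and 3. The log2 fold change was −0.28 ± 0.07 (adjusted p = 0.00264), and the trend was −0.09 ± 0.02 for each step (adjusted p = 0.00252). RELB has a GC content of 65.4%, and with a correction for GC content and gene length its log2 fold change was −0.24 (adjusted p = 0.0176). The other 6 calls at SPARC 5 were also made with this correction.

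NFKB1, which encodes the p105 precursor of p50, had 165 ± 4.87 CPM at SPARC 5 and 165 ± 10.3 CPM in control, with a log2 fold change of −0.002 ± 0.030. NFKB2, the precursor of p52, had 51.7 ± 3.22 CPM at SPARC 5 and 53.8 ± 4.62 CPM in control. Neither passed at any dose.

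The feedback genes of NF-kB did not pass, and 2 of them lay near the threshold. NFKBIA, which encodes the inhibitor IκBα, had 101, 97.3, 96.5, 94.0 and 91.5 CPM at SPARC 5, against 112, 107, 98.9, 103 and 112 CPM in control. The lowest control sample lay within the SPARC 5 samples, and the log2 fold change was −0.15 ± 0.06 (adjusted p = 0.0962). BIRC3, a ubiquitin ligase that protects cells from death, had 14.9 ± 2.66 CPM at SPARC 5 and 19.2 ± 4.22 CPM in control, with a log2 fold change of −0.37 ± 0.13 (adjusted p = 0.0939). Both passed in 5 of 9 other settings, which included library-size scaling and the replicate block, and in 3 of the 20 fits that left out 1 sample. Those were without control sample 3 or SPARC 0.05 samples 3 or 4 for NFKBIA, and without control samples 2 or 3 or SPARC 5 sample 1 for BIRC3. TNFAIP3, the deubiquitinase A20, had 31.96 ± 3.12 CPM at SPARC 5 and 30.9 ± 7.40 CPM in control. Of the targets, the adhesion molecule ICAM1 had 15.1 ± 1.38 and TNFAIP2 0.426 ± 0.143 CPM at SPARC 5, against 17.2 ± 1.42 and 0.797 ± 0.37 CPM in control, and neither passed (adjusted p = 0.109 for ICAM1 and 0.0882 for TNFAIP2). Each passed in 1 of the 20 fits that left out 1 sample. For ICAM1 it was that without control sample 2 (adjusted p = 0.0487, and up to 0.297 in the others). For TNFAIP2 it was that without control sample 5 (adjusted p = 0.0239, and up to 0.352 in the others). In 9 other settings ICAM1 passed in 1 and TNFAIP2 in 0.

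The acute-phase and complement genes held the falls that were clearest against the spread. SAA1, the gene of serum amyloid A (chr11:18266174-18269977, plus strand; GRCh38, GENCODE 29), had 22.7, 22.9, 18.7, 19.8 and 18.9 CPM at SPARC 5, against 35.0, 28.5, 31.5, 30.2 and 30.5 CPM in control. Every sample of SPARC 5 was below every control sample. SAA1 fell by 0.60 ± 0.08 on the log2 scale (adjusted p = 1.66e-06) and passed in all 20 fits that left out 1 sample. Across the doses the level was 31.1 ± 2.45 CPM in control, 28.9 ± 4.12 CPM at SPARC 0.05, 26.1 ± 2.65 CPM at SPARC 0.5 and 20.6 ± 2.02 CPM at SPARC 5, a trend of −0.19 ± 0.03 for each step (adjusted p = 8.74e-07). At SPARC 0.5 the log2 fold change against control of −0.26 ± 0.08 did not pass (adjusted p = 0.0814).

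C3, the central complement protein (chr19:6677704-6730562, minus strand), had 23.6, 23.8, 21.2, 20.9 and 20.8 CPM at SPARC 5, against 36.3, 28.9, 30.01, 32.7 and 28.3 CPM in control. All samples of SPARC 5 lay below all samples of control, and also below all samples of SPARC 0.5 and SPARC 0.05. C3 fell by 0.50 ± 0.06 on the log2 scale (adjusted p = 4.54e-10). C3 averaged 31.2 ± 3.29 CPM in control, 30.1 ± 2.49 CPM at SPARC 0.05, 27.5 ± 2.16 CPM at SPARC 0.5 and 22.1 ± 1.49 CPM at SPARC 5, with a trend of −0.16 ± 0.02 for each step (adjusted p = 1.37e-10). In the annotation C3 overlaps GPR108 on the same strand. GPR108 had a log2 fold change of −0.04 ± 0.06 (adjusted p = 0.758).

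SPARC 5 was also lower than the 2 other doses for these genes. Against SPARC 0.5, SAA1 fell by 0.34 ± 0.08 (adjusted p = 0.00907) and C3 by 0.32 ± 0.06 (adjusted p = 0.000154) on the log2 scale. Against SPARC 0.05, SAA1 fell by 0.49 ± 0.08 (adjusted p = 5.54e-05) and C3 by 0.45 ± 0.06 (adjusted p = 2.36e-08). SAA2, a near copy of SAA1, had 9 to 27 counts per sample and did not pass, with 0.429 ± 0.167 CPM at SPARC 5 and 0.425 ± 0.117 CPM in control. Of the 75-base windows of SAA1, 35.0% also lie in SAA2, so the split between these genes is uncertain. CFB, a protease of the alternative complement pathway, and LCN2, which binds bacterial siderophores, had at most 26 and 24 counts per sample and did not pass.

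Of the prostaglandin enzymes, PTGS2 rose and PTGES fell. PTGS2, the inducible cyclooxygenase that makes prostaglandin H2, had 5.86, 4.21, 5.85, 5.45 and 4.60 CPM at SPARC 5, against 4.04, 2.50, 2.07, 2.99 and 4.10 CPM in control. The groups did not overlap, and SPARC 5 sample 2 came nearest to the highest control samples. PTGS2 rose by 0.73 ± 0.15 on the log2 scale (adjusted p = 0.000192). The level was 3.56 ± 0.604 CPM at SPARC 0.05 and 3.30 ± 0.387 CPM at SPARC 0.5, neither of which passed against control. SPARC 5 was above SPARC 0.5 by 0.66 ± 0.15 (adjusted p = 0.00178) and above SPARC 0.05 by 0.55 ± 0.15 (adjusted p = 0.00901; 0.067 without SPARC 0.05 sample 3) on the log2 scale.

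PTGES, which converts prostaglandin H2 to prostaglandin E2, had 3.67, 4.11, 3.94, 4.57 and 3.30 CPM at SPARC 5, against 6.85, 5.07, 7.67, 5.43 and 4.31 CPM in control. The groups overlapped by control sample 5 alone, which lay below SPARC 5 sample 4. PTGES fell by 0.59 ± 0.13 on the log2 scale (adjusted p = 0.000611), and the change was −0.47 (adjusted p = 0.0163) without control sample 3. At SPARC 0.5 PTGES had 4.01, 4.77, 3.91, 4.12 and 3.97 CPM, against the same control samples. Only SPARC 0.5 sample 2 lay above the lowest control sample. The log2 fold change was −0.50 ± 0.13 (adjusted p = 0.0184), and it was −0.38 (adjusted p = 0.17) without control sample 3. The call was also lost without control sample 1 or SPARC 0.5 samples 3 or 4. At SPARC 0.05 the level was 5.09 ± 0.46 CPM, which did not pass, and the trend over the doses was −0.21 ± 0.04 for each step (adjusted p = 0.000119).

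**Figure D3:**
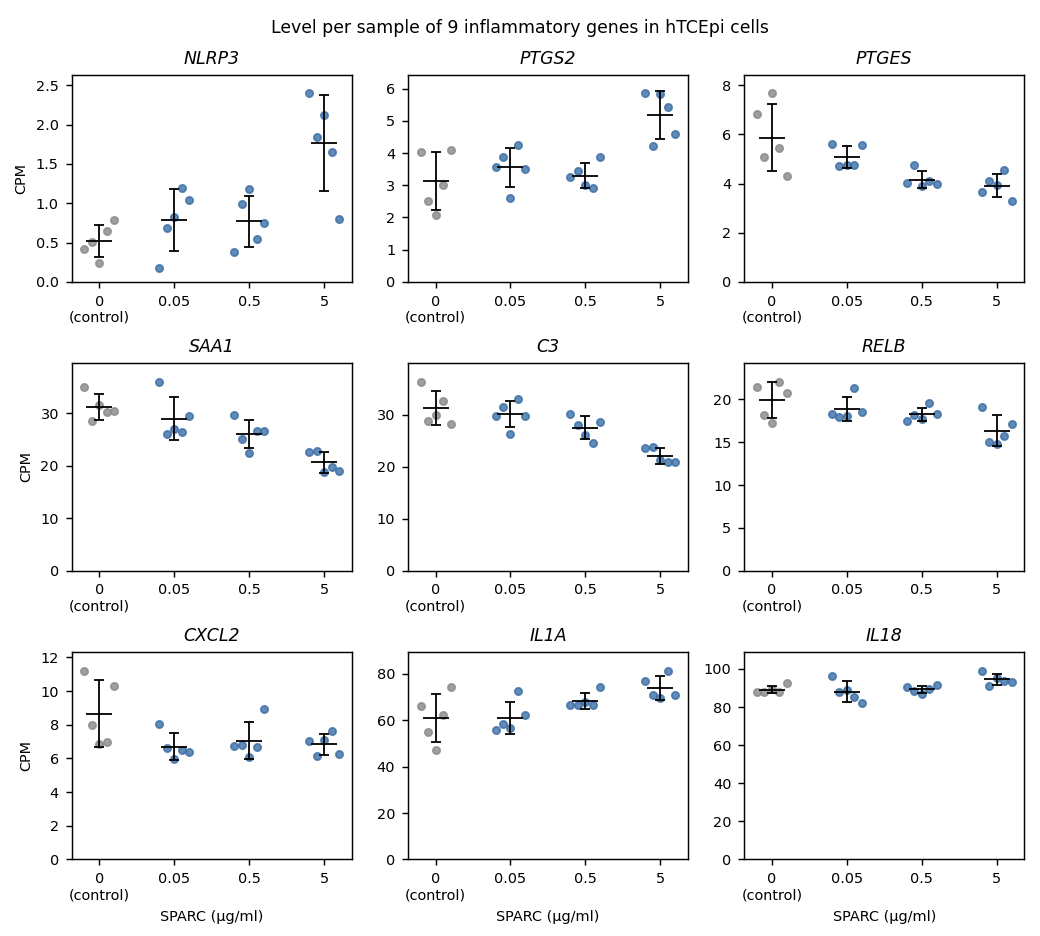
CPM of 9 genes with a call in any comparison or in the trend, by dose from control to SPARC 5, 1 point per sample with the mean ± SD of 5 samples. SAA1 has means of 31.1, 28.9, 26.1 and 20.6 CPM and C3 of 31.2, 30.1, 27.5 and 22.1 CPM in the order of dose, while PTGS2 and NLRP3 stand higher at SPARC 5 with means of 5.19 and 1.76 CPM.

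Between the doses, some of the genes that changed at SPARC 5 passed again. Against SPARC 0.5, NLRP3, C3, SAA1 and PTGS2 changed, which is 4 of 29 where 4.8% of all genes tested did, and 3 of 29, TNFAIP2, C3 and PTGS2, had groups that did not overlap, where 4.8% of all genes had. Against SPARC 0.05, 5 of 29 changed, the same 4 and IL18, where 8.29% of all genes did, and C3, SAA1 and PTGES had groups that did not overlap, where 7.18% of all genes had. PTGES, RELB and CXCL2 did not pass between SPARC 5 and SPARC 0.5, with log2 fold changes of −0.08 ± 0.13, −0.16 ± 0.07 and −0.04 ± 0.11. The trend passed for IL1A, NLRP3, RELB, C3, SAA1, PTGS2 and PTGES, 7 of 29 where 12.1% of all genes did. Any difference among the 4 groups passed for 7 of 29 where 11% of all genes did, and CXCL2 stood there in place of IL1A.

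At SPARC 0.5 against control 6 of the 29 genes had an unadjusted p under 0.05, and at SPARC 0.05 CXCL2 was the 1 such gene. The share of all genes at an unadjusted p under 0.05 is not given here for any comparison, so these counts have no background. Between SPARC 0.5 and SPARC 0.05 edgeR called 0 of 29 where 0.179% of all genes changed, with 3 at an unadjusted p under 0.05, and DESeq2 called 0. The median log2 fold change of the 29 genes was −0.076 at SPARC 0.05 and −0.073 at SPARC 0.5, against −0.0025 and −0.0044 over all genes tested. At SPARC 0.05, 23 of the 29 values were below 0, where 11676 of all 22938 genes tested were. The comparisons share their control samples.

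In the authors' deposited table for SPARC 5, 9 of the 20 listed genes had an adjusted p under 0.05, where 16.3% of all 16045 genes listed there had. In the authors' deposited table these were SAA1, C3, PTGS2, IL1A, NLRP3, PTGES, RELB, BIRC3 and NFKBIA, so IL1A, BIRC3 and NFKBIA passed there and CXCL2 (adjusted p = 0.116) did not. The authors' deposited table for SPARC 0.5 had 3 such genes, NFKBIA, SAA1 and PTGES, where 3.42% of all listed genes passed. The authors' deposited table for SPARC 0.05 had 0, where 0.686% of all listed genes passed.

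Other genes of these pathways were taken from 7 lists. At SPARC 5 against control, 33 of their 131 tested genes passed (25.2%, where 11.6% of all genes tested did). At SPARC 0.5, 3 of their 131 tested genes passed (2.29%, where 2.25% of all genes tested did), which were IRAK2, CD44 and the lymphotoxin receptor LTBR (−0.09 ± 0.02, adjusted p = 0.0274). Of 35 tested genes of the NF-kB signalling machinery, 7 rose and 3 fell at SPARC 5, with a median log2 fold change of −0.015. Over all genes tested 7.05% rose and 4.58% fell, with a median of −0.0069. MAP3K14, the kinase that starts the noncanonical pathway, fell by 0.25 ± 0.05 (adjusted p = 0.000441) and the IL-1 receptor kinase IRAK2 fell by 0.43 ± 0.10 (adjusted p = 0.000858). BIRC2, a ubiquitin ligase related to BIRC3, rose by 0.16 ± 0.04 (adjusted p = 0.00146) and IRAK4, the kinase upstream of IRAK2, rose by 0.33 ± 0.08 (adjusted p = 0.0028). IRAK2 fell at SPARC 0.5 too, by 0.34 ± 0.10 (adjusted p = 0.0405).

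Of 28 tested genes on a list of further NF-kB targets, 3 rose and 4 fell at SPARC 5, with a median of 0.027. Over all genes tested 7.05% rose and 4.58% fell. The zinc-finger factor KLF6 had 164 ± 4.43 CPM at SPARC 5 and 125 ± 6.18 CPM in control, a rise of 0.40 ± 0.03 (adjusted p = 1.3e-18). The hyaluronan receptor CD44 rose by 0.21 ± 0.02 (adjusted p = 1.07e-12), with 767 ± 12.3 CPM at SPARC 5 and 662 ± 19.1 CPM in control. At SPARC 0.5 CD44 rose by 0.09 ± 0.02 (adjusted p = 0.0156). The membrane-bound chemokine CXCL16 fell by 0.32 ± 0.07 (adjusted p = 0.000271), and LTB, a lymphotoxin subunit, fell by 0.59 ± 0.13 (adjusted p = 0.000666).

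**Figure D4:**
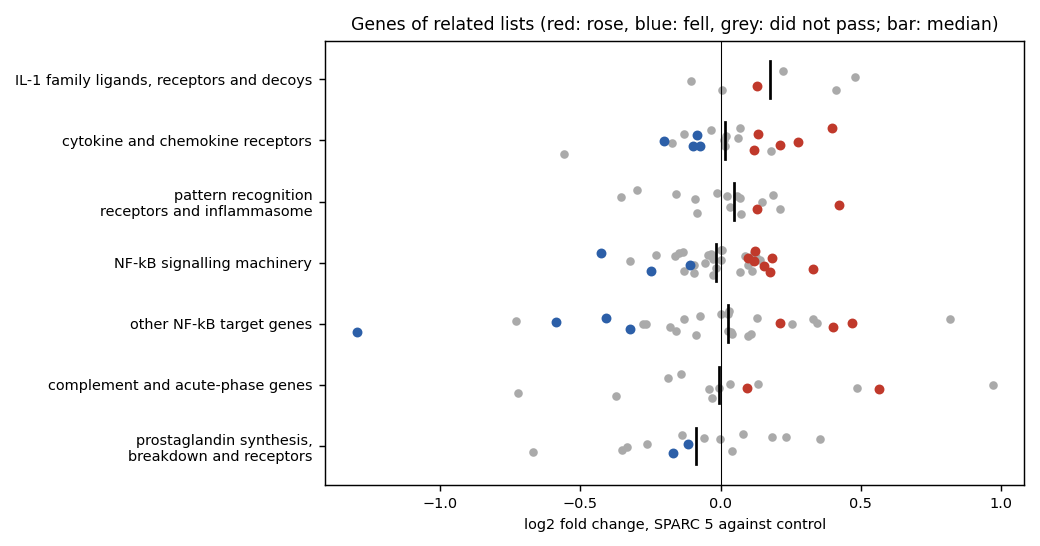
Log2 fold change at SPARC 5 against control of the tested genes of 7 related lists, with genes that rose in red, genes that fell in blue and the rest in grey, and a bar at each list's median. Both rises and falls occur in 3 of the 7 lists (signalling machinery, further targets and receptors), and the medians lie between −0.089 (prostaglandin genes) and 0.18 (IL-1 family).

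Of 13 tested complement and acute-phase genes outside the 36, 2 passed at SPARC 5 and both rose, where 11.6% of all genes tested passed. The median over the list was −0.0065. CD59, which blocks the membrane attack complex on the cell's own surface, had 214 ± 7.40 CPM at SPARC 5 and 145 ± 15.7 CPM in control, a rise of 0.56 ± 0.07 (adjusted p = 8.82e-06). CD46, a cofactor that inactivates C3b, rose by 0.09 ± 0.03 (adjusted p = 0.0174). CP, the copper-carrying ceruloplasmin, had a log2 fold change of 0.97 ± 0.45 (adjusted p = 0.171).

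Of 14 tested genes of prostaglandin synthesis, breakdown and receptors outside the 36, 2 passed at SPARC 5 and both fell. Over all genes tested 11.6% passed, and the median over the list was −0.089. PTGES2, another prostaglandin E synthase, fell by 0.12 ± 0.03 (adjusted p = 0.00204), and PTGER4, a receptor of prostaglandin E2, fell by 0.17 ± 0.06 (adjusted p = 0.0331). PTGER2, another such receptor, had a log2 fold change of 0.23 ± 0.08 (adjusted p = 0.0524), and the lipoxygenase ALOX15B one of −0.67 ± 0.24 (adjusted p = 0.0514).

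Of 16 tested pattern receptors and inflammasome genes, 2 passed at SPARC 5 and both rose. This share is near the 11.6% of all genes tested that passed, and the median over the list was 0.047. NLRP1, a sensor of epithelial inflammasomes, had 17.3 ± 1.11 CPM at SPARC 5 and 12.9 ± 0.993 CPM in control, a rise of 0.42 ± 0.07 (adjusted p = 8.07e-06), and GSDME, a pore-forming gasdermin, rose by 0.13 ± 0.04 (adjusted p = 0.0255). PYCARD, the adaptor of NLRP3, had a log2 fold change of 0.21 ± 0.09 (adjusted p = 0.153), and NLRC5, a regulator of MHC class I genes, one of −0.30 ± 0.12 (adjusted p = 0.094).

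Of 19 tested cytokine and chemokine receptors, 5 rose and 4 fell at SPARC 5, with a median of 0.017. Over all genes tested 7.05% rose and 4.58% fell. IL6ST, the signalling subunit of the IL-6 family, rose by 0.12 ± 0.03 (adjusted p = 0.00349), and its partner OSMR rose by 0.13 ± 0.04 (adjusted p = 0.00698). IL13RA1 rose by 0.21 ± 0.06 (adjusted p = 0.00459) and IL17RC by 0.28 ± 0.07 (adjusted p = 0.00523). The other receptors that passed are named after their values were seen. The scavenging chemokine receptor ACKR3 rose by 0.40 ± 0.14 (adjusted p = 0.042). IL6R, the binding subunit for IL-6, fell by 0.20 ± 0.06 (adjusted p = 0.026), LTBR by 0.07 ± 0.02 (adjusted p = 0.0245), IL4R by 0.10 ± 0.03 (adjusted p = 0.0294) and the death receptor TNFRSF10B by 0.08 ± 0.03 (adjusted p = 0.043) on the log2 scale. Of 6 tested IL-1 family genes outside the 36, 1 rose, where 7.05% of all genes tested did. It was IL1RAP, the shared accessory receptor of IL-1, with 101 ± 4.46 CPM at SPARC 5 and 91.9 ± 1.14 CPM in control (0.13 ± 0.03, adjusted p = 0.00238). The signalling receptor IL1R1 had a log2 fold change of 0.41 ± 0.17 (adjusted p = 0.0996), IL1RL2, the receptor of IL-36, one of 0.22 ± 0.13 (adjusted p = 0.292), and IL18R1, a receptor chain of IL-18, one of 0.48 ± 0.31 (adjusted p = 0.397).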

How the data were processed

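RNA of 20 hTCEpi samples was depleted of ribosomal RNA and sequenced as paired reads from random-primed cDNA, per the labels' protocols. The deposited table holds whole-number counts per Ensembl gene made by the authors. Per the submitters' processing notes the build was GRCh38 and the tools included featureCounts 2.0.3 and STAR 2.7.9a. Not given in the sources used here are the annotation release, the strand setting and whether mates were counted together, so reads of overlapping or antisense genes cannot be told apart; 72.9% of counts between 1 and 8 were even. The 3 deposited comparison tables hold, per the file headers, log2 fold changes with intervals and p-values from the authors. 60 columns of per-sample values in the deposited tables were not used.

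The 60871 entries were reduced to 60671 gene IDs, since 168 IDs stood on several entries (0.278% to 0.296% of counts removed). filterByExpr (minimum count 10) kept 22938 genes. Tests were quasi-likelihood F-tests (edgeR 4.0.16, R 4.3.3) with TMM scaling and 1 model of the 4 group means, and p-values were adjusted by Benjamini-Hochberg over all genes tested. "Rose" and "fell" mean an adjusted p under 0.05. SE is the size of the log2 fold change divided by the square root of F, and the common coefficient of biological variation was 6.68%. The trend scores control and the 3 doses as equal steps. In 40 replicate pairs the chi-square per gene was 4.09 to 9.55, more than the sampling noise of reads counted once gives. All 20 samples were counted separately, but this check cannot show whether they were separate cultures. The edgeR step was tested on simulated data. Limits from counts cover counting error only.

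The 36 genes and all lists were chosen with earlier results of these data known, so a pattern shown earlier is not independent evidence. Genes with an adjusted p under 0.05 in any comparison of doses or in the trend were to be given in every sample, the other tested genes by level, and up to 4 genes with the smallest p from each related list. CSF3, NFKBIA, GPR108 and further receptors were given after their values were seen. Positions, lengths and shared windows are from GENCODE 29 (GRCh38), and promoters from RefSeq (GRCh38.p14; the first entry where a gene has several). The NF-kB consensus was searched on both strands and overlapping matches were merged.

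Alternatives were DESeq2 1.42.0 and its size factors, library sizes without TMM, no filter on low counts, only the 2 groups compared, a replicate block, a correction for GC content and length with and without the block, and leaving out each of the 20 samples. A fit without SPARC 5 samples 2 and 5, which stood apart in earlier work, was added after the data were seen. Samples are named by their replicate number, which has no order.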

Additional observations from a re-analysis of the deposited data

Results flagged for a closer look

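In 8 of 116 groups of 5 samples (29 genes in 4 groups) 1 sample lay so far from the other 4 that its gap exceeded 0.71 of the group's range. Chance gives about 1 in 20 such groups, so 8 is close to that rate. CSF3 had 2.58 CPM (108 counts) in SPARC 5 sample 3, against 0.0825 to 0.532 CPM in the other 4, and CFB had 0.81 CPM (26 counts) in SPARC 5 sample 2, against 0.249 to 0.287 CPM. NFKB2 had 57.4 CPM in SPARC 5 sample 1, against 49.7 to 51.1 CPM in the others of its group. At SPARC 0.5, sample 5 was high for IL1A (74.4 CPM, others 66.4 to 67.7) and for CXCL2 (8.93 CPM, others 6.11 to 6.81), and sample 2 was high for PTGES (4.77 CPM, others 3.91 to 4.12). RELB had 21.3 CPM in SPARC 0.05 sample 4, against 18.0 to 18.5 CPM, and IL18 had 92.7 CPM in control sample 5, against 88.0 to 89.3 CPM. The cause of these values was not tested.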

How the results depend on the processing

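At SPARC 5 against control NLRP3, PTGS2, PTGES, SAA1, C3 and RELB passed in all 20 fits that left out 1 sample and in all 9 other settings. CXCL2 passed in 14 of the 20 and in 8 of the 9, and missed without SPARC 5 samples 2 and 5 (adjusted p = 0.265). The count of 7 genes was 6 to 9 with 1 sample left out and 6 to 10 in other settings. Over all genes, the 2666 calls were 2236 to 2665 with 1 sample left out and 2207 to 3191 in other settings. No pairing by replicate number was seen in correlations taken over many genes at once. None of 30 same-numbered pairs had a correlation over 0.1 (−0.0353 to 0.0438), and 7 of 20 samples correlated best with their own number. A pairing limited to fewer genes was not tested. With the replicate block 10 of the 29 tested genes were called at SPARC 5, where 12.0% of all genes were. Library sizes alone turned the split of all calls to 1000 higher and 2191 lower (31.3% higher), against 1616 and 1050 with TMM (60.6%), and moved the median change of all genes to −0.054, against −0.0069 on the log2 scale. NLRP3 and PTGS2 remained higher under it and 8 of the 29 were lower, against 5.

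At SPARC 0.5 against control the count of 1 became 2 with library sizes only, 3 without the filter, with only the 2 groups or with the block, 4 with the GC correction and block, and 0 to 2 with 1 sample left out. The count of 5 between SPARC 5 and SPARC 0.05 was 3 to 6 with 1 sample left out. Over all genes, the 517 calls at SPARC 0.5 were 819 with DESeq2 and 267 to 611 with 1 sample left out. The 61 at SPARC 0.05 were 203 with DESeq2, 17 with the GC correction, 39 with it and the block, and 22 to 82 with 1 sample left out. The 41 between SPARC 0.5 and SPARC 0.05 were 89 with DESeq2, 70 without the filter, 66 with the block, 68 with the GC correction, 96 with both, 80 with only the 2 groups, and 15 to 52 with 1 sample left out.

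The values of 5 genes changed sign, none of them past the threshold. NFKB1 (−0.002) was 0.0009 with the GC correction, 0.0017 with it and the block, 0.0206 without SPARC 5 samples 2 and 5, and −0.034 to 0.019 with 1 sample left out. SAA2 (0.020) was −0.0272 with library sizes only, −0.0221 without SPARC 5 samples 2 and 5, and −0.15 to 0.14 with 1 sample left out. LCN2 (0.067) was −0.4774 without those samples and −0.48 to 0.34 with 1 left out. With 1 sample left out CSF3 (0.44) was −0.97 to 0.73 and TNFAIP3 −0.027 to 0.17. The cause was not tested. Genes under about 30 counts per sample (CFB, LCN2, SAA2, IL1RN, CSF2) have wide errors at this depth.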
